A study of Mus musculus with 27 samples.

Results

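Short-range deletions inside the Sμ switch region were examined in CH12F3, a line of mouse B cells that changes its antibody class from IgM to IgA on stimulation. Junctions had been mapped by LAM-HTGTS, which copies DNA from a primer in a fixed bait sequence and reads into whatever DNA was joined to it, the prey. The members were all junctions on chromosome 12 (mm9) with prey in the minus orientation at chr12:114661780-114664779, that is, 1 to 3000 bp below the lowest bait alignment. A join of this kind removes the DNA between the end of the bait in the read and the junction, here 16 to 3096 bp. Where bait and prey overlap in the read, a copy of the shared bases is lost as well and is not in these lengths. The rule took 31016 of 193201 junctions (16.1%), and single libraries held 602 to 1872 members among 3610 to 14524 junctions. The bait (chr12:114664780-114664913) was set at the Iμ promoter of the IgH locus.

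The 27 libraries came from 9 clones with 3 libraries each. WT was the parental line, as 1 clone. Each mutant genotype (PAXX-/-, XLF-/-, XLF-/-PAXX-/- and Ligase4-/-) had 2 clones. Per the labels, both XLF-/-PAXX-/- clones were made from 1 PAXX-/- clone, the first Ligase4-/- clone and the single mutants were derived from the parental line, and the second Ligase4-/- clone was obtained from another source. All groups shared the same treatment: 72 h of stimulation with 20 ng/mL IL-4, 1 mg/mL αCD40 (the unit as labelled) and 1 ng/mL TGFβ, followed by sonication of the DNA and blocking with the enzyme AflII. No unstimulated sample was analysed here, so no background without induced breaks was measured, and the genotypes themselves cannot be checked in junction data. The design text calls the 3 libraries of a clone biological replicates. The tables tell libraries apart without giving their replicate numbers, so libraries were numbered by name only, and p-values over libraries measure a spread that may be technical. Only XLF-/- and PAXX-/- shared sequencing runs. WT, XLF-/-PAXX-/- and Ligase4-/- each lay in runs of their own, so that run and genotype cannot be told apart in any comparison that involves one of them, the tests across all genotypes included. The Ligase4-/- clones shared no run with each other, so that run and clone cannot be told apart between them either.

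Class switch recombination starts when the enzyme AID deaminates cytosines in the repetitive switch regions, above all within AGCT motifs, and the lesions become breaks. Breaks in Sμ can be joined to a downstream switch region such as Sα, which gives a new antibody class, or to another break within Sμ, which gives an internal deletion and no change of class. Ends are joined chiefly by classical non-homologous end joining, in which DNA ligase 4 seals the ends and XLF and PAXX assist the ligase complex. Without that pathway B cells still join switch breaks through alternative end joining, which is known for its use of short stretches of shared sequence (microhomology) at the joint. The comparison addresses whether PAXX and XLF can stand in for each other in this reaction. Joint structure was taken from how far the aligned bait and prey overlap within a read: bases shared by both are microhomology, an overlap of 0 is a direct join, and bases belonging to neither are an insertion.

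The sequence below the bait changes character along the window, and that sets which shared bases are on offer to a join. The 3 stretches shown first are mm9 as the deposited junction contexts give it, minus strand, in the direction of the read. The bait region (chr12:114664780-114664913) is shown with its AflII site, at bait positions 108 to 113, in capitals. The blocking enzyme cuts DNA that keeps this site, and 2.25% of members had a bait alignment that ran through it. The stretch that starts past 800 bp (chr12:114663860-114663979) stands where the first repeat bases, written in lower case in the contexts, had begun at 780 bp. The stretch that starts past 1600 bp (chr12:114663060-114663179) is a dense part of the repeats. In both, AGCT is in capitals, and AGCT reads the same on both strands.
bait region: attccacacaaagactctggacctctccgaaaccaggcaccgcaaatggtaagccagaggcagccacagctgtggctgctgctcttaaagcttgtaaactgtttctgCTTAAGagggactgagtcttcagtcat
first repeat stretch: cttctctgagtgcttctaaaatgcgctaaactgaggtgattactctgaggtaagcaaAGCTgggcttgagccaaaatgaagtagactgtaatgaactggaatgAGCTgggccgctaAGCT
dense repeat stretch: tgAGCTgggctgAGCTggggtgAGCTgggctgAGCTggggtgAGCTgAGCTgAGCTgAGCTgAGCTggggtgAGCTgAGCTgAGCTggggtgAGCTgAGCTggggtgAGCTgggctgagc

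The dense stretch holds 15 copies of AGCT and the first repeat stretch holds 3. Of the 25 consecutive stretches of 120 bases that make up the window, 22 hold at least 1 copy (88.0%). The whole window holds 201 copies, of which 2 lie at 1 to 500 bp, 8 at 500 to 1000 bp, 128 at 1000 to 2000 bp and 63 at 2000 to 3000 bp, each class starting 1 base past its lower bound. Within the repeats, 36.1% of positions are part of an AGCT, and 39.8% of joins fell on such a position (mean of the 9 clones, with clones between 36.2% and 46.7%). Outside the repeats these shares were 2.85% of positions and 3.43% of joins (2.79% to 4.26%). Within the repeats no clone lay below the share of positions, and outside them clones lay on both sides of it. AGCT held 51.2% of positions at 1000 to 2000 bp and 25.2% at 2000 to 3000 bp, so its share depends on distance. Whether joins favoured AGCT was not tested. Over the whole window, 26.8% of positions and 29.3% of WT joins were on AGCT, with 23.2% to 25.6% of joins by mutant genotype. The test across genotypes gave an adjusted p of 0.387 (64.9% of the variation among clones, exact permutation test, p = 0.273).

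A recurrent join of each kind, in the sequence most of its reads had, shows what was measured. The microhomology join had a 9-base overlap, in capitals, and lay 673 bp from the bait. It was seen in 23 libraries from all 9 clones. Between its bait end and its junction lay 737 bp, to which the lost copy of the 9 shared bases is not added. The direct join, with the bait side in capitals, lay at 994 bp, deleted 1080 bp and was seen in 7 libraries of 5 clones. It is direct against mm9, which has C at 993 bp, just before the junction. There 68% to 83.7% of prey reads had T in all clones but Ligase4-/- clone 2 (1.69% of 59 reads). The bait side also ends in T, so against that base the join would count as microhomology. The insertion join, with its single inserted base in capitals, lay at 1053 bp, deleted 1112 bp and was seen in 8 libraries of 6 clones. Its inserted T stands at 1052 bp, where mm9 has C, and 75.6% to 88.2% of prey reads had T there in all clones but Ligase4-/- clone 2 (0 of 47 reads). It is thus an insertion against mm9 and matches the base that most reads of those clones carry.
microhomology join: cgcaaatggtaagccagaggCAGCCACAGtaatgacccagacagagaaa
direct join: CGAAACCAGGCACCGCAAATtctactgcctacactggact
insertion join: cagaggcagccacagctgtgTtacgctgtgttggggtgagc

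The same exact join could recur in separate clones. Pairs of libraries from 1 clone shared 3.26% to 20.3% of their joins and pairs from different clones 2.25% to 21.6%. Within a library, 1.19% of members repeated the junction and bait end of another.

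The genotypes separated into 2 sets by joint structure. In WT, direct joins made up 20.4%, 23.9% and 19.1% of joins in the 3 libraries. In PAXX-/- they made up 17.7%, 17.9% and 20.3% in clone 1 and 17.6%, 18.04% and 17.7% in clone 2, so that only the highest PAXX-/- library overlapped with WT. In XLF-/- they made up 6.81%, 8.94% and 7.65% in clone 1 and 7.29%, 7.39% and 7.97% in clone 2. No library lacking XLF or DNA ligase 4 reached 9%, and none with both fell below 17%. The XLF-/-PAXX-/- libraries lay at 6.13%, 7.82% and 6.44% in clone 1 and 6.84%, 7.24% and 5.72% in clone 2. The Ligase4-/- libraries lay at 6.998%, 6.87% and 6.62% in clone 1 and at 4.21%, 8.27% and 6.09% in clone 2, the widest spread among the mutant clones. Of the variation in direct share among the 9 clones, measured as sum of squares, 99.8% lay between genotypes (exact permutation test over 945 assignments, p = 0.00317, adjusted p = 0.0230).

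Joins with microhomology made up 53.4%, 49.4% and 50.9% of joins in the WT libraries. PAXX-/- gave 46.8% ± 2.24 (SD, n = 3 libraries) in clone 1 and 48.3% ± 0.632 in clone 2, and all 6 of its libraries lay below all 3 of WT. XLF-/- gave 70.1% ± 2.45 and 71.7% ± 1.52 in its clones, the highest of all genotypes. XLF-/-PAXX-/- gave 66.2% ± 1.43 and 65.2% ± 1.42, and Ligase4-/- gave 67.4% ± 0.734 and 67.1% ± 4.49. Of the variation among clones 99.6% lay between genotypes (exact permutation test, p = 0.00106, the smallest that 945 assignments can give, adjusted p = 0.0230). Insertions made up 27.6% ± 2.05 of joins in WT, 34.6% ± 0.799 and 33.9% ± 0.446 for PAXX-/-, and 22.1% ± 3.34 and 20.8% ± 1.89 for XLF-/-. The XLF-/-PAXX-/- clones, at 27.0% ± 1.88 and 28.2% ± 0.641, and the Ligase4-/- clones, at 25.8% ± 0.560 and 26.7% ± 2.46, lay around the WT value. Genotypes differed here too (98.6% of the variation among clones, exact permutation test, p = 0.00741, adjusted p = 0.0230), but the difference was not called within 1 kb (91.8%, exact permutation test, p = 0.0540). The plot of the 3 kinds of joint by library shows the direct and microhomology shares splitting the clones without overlap between WT or PAXX-/- and the rest.

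**Figure D1:**
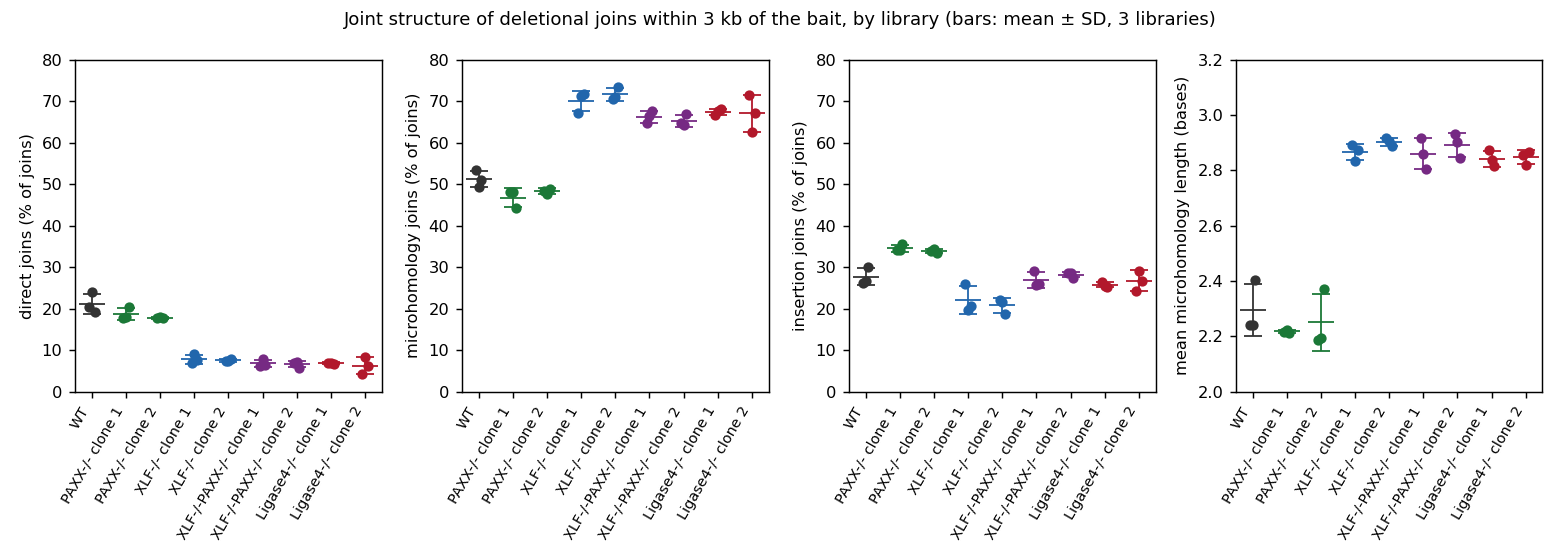
Direct, microhomology and insertion joins as a percentage of joins within 3 kb of the bait, and the mean microhomology length in bases, for each library (points) with the mean and SD of the 3 libraries of a clone. WT and PAXX-/- libraries sit above 17% direct joins and all others below 9%, and the length axis starts at 2 bases.

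Microhomology was also longer where XLF or DNA ligase 4 was missing. Its mean length over microhomology joins was 2.24, 2.24 and 2.40 bases in the WT libraries. It was 2.22 ± 0.00508 and 2.25 ± 0.104 bases for PAXX-/-, 2.87 ± 0.0281 and 2.90 ± 0.0139 for XLF-/-, 2.86 ± 0.0557 and 2.89 ± 0.0432 for XLF-/-PAXX-/-, and 2.84 ± 0.0293 and 2.85 ± 0.0253 for Ligase4-/-. The genotype test gave 99.8% of the variation among clones (exact permutation test, p = 0.00741, adjusted p = 0.0230). Not all lengths were more frequent. Joins with 1 shared base stood at 19.3% ± 1.07 of joins in WT, at 18.4% ± 1.48 and 16.9% ± 1.37 for PAXX-/-, and at 9.91% to 11.5% in the clones of the other genotypes. Joins with 2 shared bases stood at 13.8% ± 1.35 in WT and at 19.3% to 21.9% in those clones, and joins with 3 at 9.64% ± 0.677 and 16.99% to 20.5%. Joins with 5 or more shared bases stood at 4.04% ± 0.626 in WT, 2.90% ± 0.336 and 2.42% ± 0.371 for PAXX-/-, and 7.88% to 8.91% in the others. These length classes are descriptions and were not tested one by one.

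**Figure D2:**
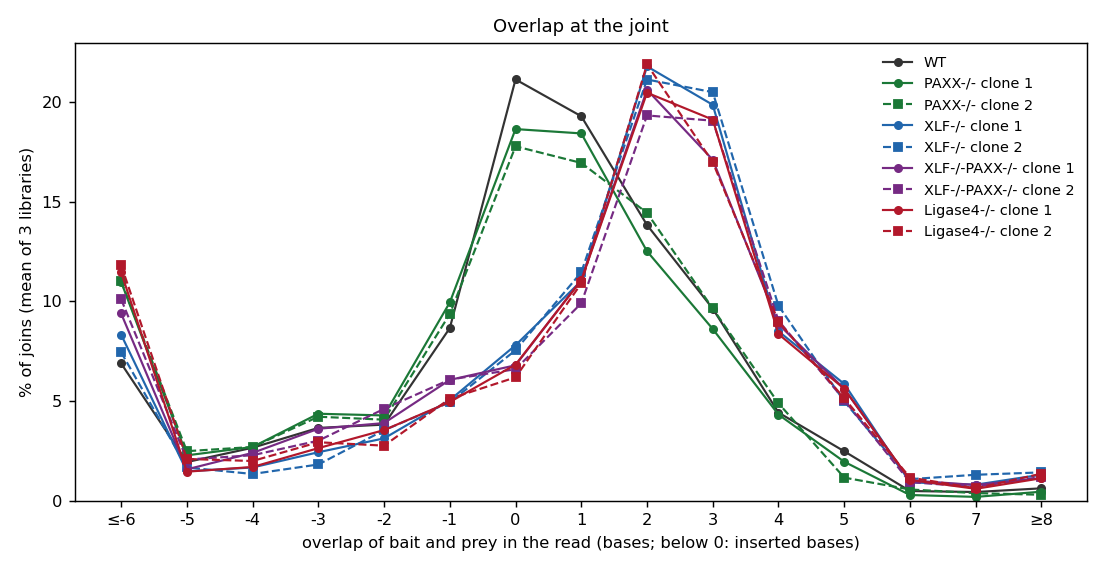
Percentage of joins (mean of 3 libraries per clone) at each overlap of bait and prey, from 6 or more inserted bases on the left, through direct joins at 0, to 8 or more shared bases on the right. The WT and PAXX-/- curves peak at 0 and 1 shared bases, and the XLF-/-, XLF-/-PAXX-/- and Ligase4-/- curves peak at 2 and 3.

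Each mutant was then set against WT by library. With 6 libraries against 3 there are 84 splits, and an exact permutation p of 0.0119 is the smallest they allow. These tests measure the spread between libraries and say nothing on the spread between clones, since WT was 1 clone. The contrasts between mutants further below also permuted libraries, 3 from each of 2 clones, and do not measure the spread between clones either. In XLF-/- the direct share differed by -13.5 percentage points (95% interval -16.3 to -11.4) and the microhomology share by 19.7 points (16.4 to 22.8). In XLF-/-PAXX-/- the differences were -14.4 points (-17.1 to -12.3) and 14.5 points (11.4 to 17.1). In Ligase4-/- they were -14.6 points (-17.2 to -12.1) and 16.0 points (11.5 to 20.6). Insertions in XLF-/- differed from WT by -6.20 points (-10.3 to -1.83). Within 1 kb of the bait that difference was -0.898 points and was not called (exact permutation test, p = 0.583). Mean microhomology length was higher than in WT by 0.590 bases (0.487 to 0.665) in XLF-/-, by 0.582 (0.462 to 0.683) in XLF-/-PAXX-/- and by 0.549 (0.454 to 0.626) in Ligase4-/-. Each of these 10 differences over the whole window had an exact permutation p of 0.0119 and an adjusted p of 0.0230.

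Loss of PAXX alone went with a different pattern. Insertions were 6.58 points more frequent than in WT (95% interval 4.12 to 8.35, exact permutation test, p = 0.0119, adjusted p = 0.0230), with all 6 PAXX-/- libraries, at 33.4% to 35.5%, above all 3 WT libraries, at 26.3% to 30.0%. Direct joins differed by -2.92 points (-6.06 to -0.639, exact permutation test, p = 0.0238, adjusted p = 0.0417) and microhomology joins by -3.66 points (-6.34 to -1.01, exact permutation test, p = 0.0119, adjusted p = 0.0230). Mean microhomology length differed by -0.0614 bases (-0.188 to 0.0517, exact permutation test, p = 0.226), which was not called. Because the 3 kinds of joint add up to the whole, the rise in insertions bears on the other shares: among joins without insertions, the microhomology share of PAXX-/- differed from WT by 1.48 points in the opposite direction and was not called (exact permutation test, p = 0.417). The direct difference was not called in that set either (-1.48 points, exact permutation test, p = 0.417), nor without WT library 1 (-3.31) or WT library 2 (-1.52), and the microhomology difference was not called without WT library 1 (-2.60). By size, insertions of 6 to 20 bases stood at 5.42% ± 0.453 of joins in WT and 7.88% ± 0.389 and 8.05% ± 0.857 for PAXX-/-. Insertions of over 20 bases stood at 1.47% ± 0.0637 in WT and 3.10% ± 0.601 and 2.98% ± 0.742 for PAXX-/-. Some insertions of 5 or more bases were the mm9 sequence next to the junction with 1 base changed. These were 26.1% of such insertions in WT, 13.1% and 10.7% for PAXX-/-, and 5.43% to 10.7% in the other clones. Their part in the size classes was not tested.

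XLF-/- and PAXX-/- libraries shared both of their sequencing runs, so this contrast was permuted within run. XLF-/- had 10.54 points fewer direct joins, a difference of -10.54 (95% interval -11.6 to -9.59), 23.3 points more microhomology joins (20.9 to 26.1) and a mean microhomology length greater by 0.651 bases (0.573 to 0.706). Insertions differed by -12.8 points (-15.0 to -10.4). All 4 had an exact permutation p of 0.00476 and an adjusted p of 0.0230. Within the first shared run (2 libraries of each genotype) the direct shares were 7.05% against 17.7%, and within the second (4 of each) 7.99% against 18.5%.

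Loss of PAXX on top of XLF went with no called change in microhomology length. Its interval was narrow over libraries and leaves out the spread between clones. The difference between XLF-/-PAXX-/- and XLF-/- was -0.00856 bases (95% interval -0.0619 to 0.0421, exact permutation test, p = 0.693). The direct share differed by -0.978 points (-1.96 to -0.00785, exact permutation test, p = 0.0498, adjusted p = 0.0820), which did not pass after adjustment. Microhomology joins differed by -5.15 points (-7.17 to -2.92) and insertions by 6.13 points (3.42 to 8.66), both with an exact permutation p of 0.00433 and an adjusted p of 0.0230. Here too run and genotype cannot be told apart, since these genotypes shared no run. Both XLF-/-PAXX-/- clones carried a base change within the bait, C70T counted from the first bait base, in 37.8% and 42.6% of reads that covered it. Among joins whose bait ended before bait position 69, 51.1% of members, the difference was -1.41 points for microhomology (exact permutation test, p = 0.253) and 2.76 points for insertions (exact permutation test, p = 0.0931), and neither was called. Within 1 kb, XLF-/-PAXX-/- held 6.12 points more insertions than WT (exact permutation test, p = 0.0119), against -0.0736 points over the whole window. Among joins without insertions, the microhomology difference was 0.515 points (exact permutation test, p = 0.335).

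XLF-/-PAXX-/- and Ligase4-/- were not separated by joint structure. Direct joins differed by 0.188 points (95% interval -1.15 to 1.59, exact permutation test, p = 0.790), the microhomology share by -1.50 points (-4.25 to 1.32, exact permutation test, p = 0.292), the insertion share by 1.31 points (-0.705 to 3.29, exact permutation test, p = 0.175) and the mean length of microhomology by 0.0321 bases (-0.0171 to 0.0812, exact permutation test, p = 0.1797). The intervals still allow a difference of a few points in either share. Within the first 1 kb, microhomology joins differed by -3.43 points (exact permutation test, p = 0.0152) and insertions by 2.91 points (exact permutation test, p = 0.0216).

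Members were a smaller share of all junctions in the mutants without XLF or DNA ligase 4. The share was 19.6%, 19.6% and 19.5% in the WT libraries. It was 22.1% ± 1.78 and 19.3% ± 1.65 for PAXX-/-, 17.1% ± 0.175 and 14.23% ± 1.17 for XLF-/-, 14.98% ± 0.533 and 16.6% ± 1.15 for XLF-/-PAXX-/-, and 12% ± 0.845 and 14.3% ± 0.735 for Ligase4-/-. Over clones, 85.3% of the variation lay between genotypes, which was not called (exact permutation test, p = 0.0614, adjusted p = 0.0982). By library, XLF-/- differed from WT by -3.88 points (95% interval -6.49 to -1.26, exact permutation test, p = 0.0238, adjusted p = 0.0417), XLF-/-PAXX-/- by -3.74 points (-5.39 to -1.99, exact permutation test, p = 0.0119, adjusted p = 0.0230) and Ligase4-/- by -6.40 points (-8.39 to -4.34, exact permutation test, p = 0.0119, adjusted p = 0.0230). The XLF-/- difference was not called when any 1 of the 3 WT libraries was left out (-3.85, -3.86 and -3.92 points, each with an exact permutation p of 0.0714). PAXX-/- differed by 1.18 points (-2.06 to 4.54, exact permutation test, p = 0.369). XLF-/-PAXX-/- held 2.66 points more than Ligase4-/- (0.897 to 4.402, exact permutation test, p = 0.00649, adjusted p = 0.0230). This difference was not called without gaps over 20 bases (2.14 points, exact permutation test, p = 0.0519), within 1 kb (1.56, p = 0.0563) or 850 bp (0.891, p = 0.154), over chromosome 12 junctions (1.62, p = 0.0974) or over deletional junctions within 10 kb (0.585, p = 0.695). XLF-/- and XLF-/-PAXX-/- differed by 0.135 points (-1.93 to 2.02, exact permutation test, p = 0.894). XLF-/- differed from PAXX-/-, within runs, by -5.06 points (-7.58 to -2.50, exact permutation test, p = 0.00476, adjusted p = 0.0230). As a share of chromosome 12 junctions alone, PAXX-/- exceeded WT by 2.27 points (exact permutation test, p = 0.0119, not adjusted), and the variation between genotypes was 94.1% (exact permutation test, p = 0.00635, not adjusted). The joins are measured as shares, so that fewer joins near the bait and more joins elsewhere cannot be told apart.

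The 3 kb limit held nearly all deletional joins near the bait in some genotypes and not in others. Of deletional junctions within 10 kb below the bait, members were 99.3% ± 0.100 in WT and 98.5% ± 0.151 and 98.0% ± 0.256 for PAXX-/-. They were 80.3% ± 0.131 and 79.8% ± 2.50 for XLF-/-, 77.3% ± 0.717 and 77.3% ± 1.26 for XLF-/-PAXX-/-, and 78.8% ± 3.03 and 74.6% ± 2.74 for Ligase4-/-. With these junctions as the denominator, of the variation among clones 98.96% lay between genotypes (exact permutation test, p = 0.0180, not adjusted). At the border itself, the 100 bp just inside and just outside 3000 bp held 0 and 1 joins in WT, 8 and 16 for PAXX-/-, 42 and 50 for XLF-/-, 86 and 116 for XLF-/-PAXX-/-, and 96 and 120 for Ligase4-/-. These are totals over 3 WT libraries and 6 of each mutant genotype, which held 2247, 7479, 5889, 7734 and 7667 members in that order.

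The farthest joins of the window were more frequent in every mutant than in WT. Joins at 2000 to 3000 bp made up 4.73%, 5.38% and 4.10% of members in the WT libraries, which came to 106 joins. They made up 8.87% ± 1.51 and 8.95% ± 1.84 for PAXX-/-, 10.8% ± 0.543 and 8.81% ± 1.07 for XLF-/-, 11.7% ± 1.10 and 11.3% ± 0.483 for XLF-/-PAXX-/-, and 14.9% ± 0.633 and 12.54% ± 0.537 for Ligase4-/-. All 24 mutant libraries lay above all 3 WT libraries. Of the variation among clones 92.8% lay between genotypes (exact permutation test, p = 0.00317, adjusted p = 0.0251 over 78 tests, a test added after the values were seen). Against WT, each mutant differed with an exact permutation p of 0.0119 and an adjusted p of 0.0251: PAXX-/- by 4.17 points (95% interval 2.14 to 6.32), XLF-/- by 5.07 (2.94 to 6.93), XLF-/-PAXX-/- by 6.78 (5.40 to 8.15) and Ligase4-/- by 8.97 (7.08 to 10.9). XLF-/-PAXX-/- lay 1.70 points above XLF-/- (0.339 to 3.14, exact permutation test, p = 0.0195, adjusted p = 0.0390) and differed from Ligase4-/- by -2.19 points (-3.69 to -0.711, exact permutation test, p = 0.00649, adjusted p = 0.0251). XLF-/- and PAXX-/-, compared within their shared runs, differed by 0.903 points (-0.930 to 2.75, exact permutation test, p = 0.262, not called), with -0.234 in the first run and 1.47 in the second.

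**Figure D3:**
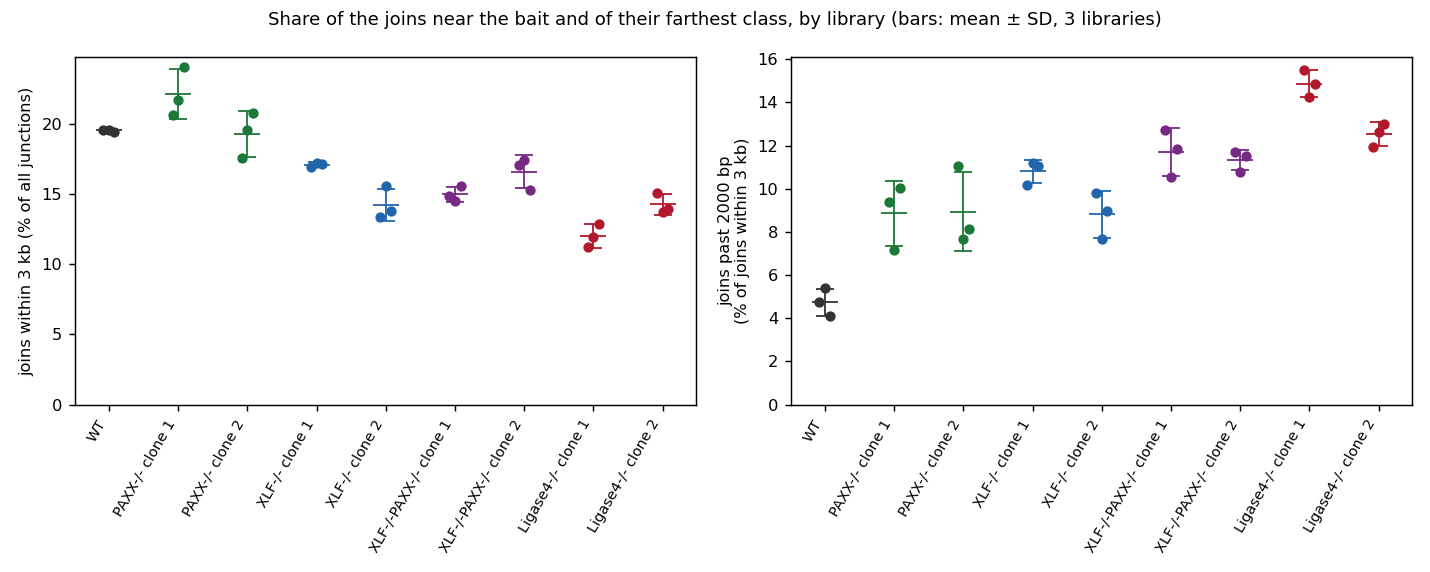
Left, joins within 3 kb of the bait as a percentage of all junctions of a library, and right, joins at 2000 to 3000 bp as a percentage of joins within 3 kb, for each library (points) with the mean and SD of the 3 libraries of a clone. On the right the 3 WT libraries, at 4.10% to 5.38%, lie below every mutant library.

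The median distance over the whole window did not separate the genotypes. It was 909 bp ± 48.8 in WT and between 823 bp and 938 bp in the mutant clones (9.23% of the variation among clones, exact permutation test, p = 0.979). Joins in the nearest 200 bp made up 16.98% ± 1.39 of members in WT, 15.8% ± 0.425 and 18.6% ± 0.847 for PAXX-/-, and 9.86% to 13.95% in the other clones. Joins at 500 to 1000 bp made up 26.8% ± 0.751 in WT, 26.9% ± 2.99 and 26.5% ± 1.95 for PAXX-/-, and 31.6% to 39.4% in the other clones (86.0% of the variation among clones, exact permutation test, p = 0.0698, adjusted p = 0.116, not called). Counting only joins within 1 kb, the median distance was 481 bp ± 17.8 in WT and 505 bp ± 31.1 and 408 bp ± 39.8 for PAXX-/-. It was 587 bp ± 4.93 and 609 bp ± 27.8 for XLF-/-, 630 bp ± 21.6 and 621 bp ± 21.7 for XLF-/-PAXX-/-, and 580 bp ± 4.04 and 583 bp ± 20.7 for Ligase4-/-. In that shorter window, of the variation among clones 88.8% lay between genotypes (exact permutation test, p = 0.0328, not adjusted), and XLF-/- exceeded WT by 117 bp, XLF-/-PAXX-/- by 144 bp and Ligase4-/- by 101 bp (exact permutation test, p = 0.0119 each, not adjusted). With the nearest 200 bp left out of the 3 kb window the direction was the opposite, at -74.8 bp for XLF-/- and -94.4 bp for XLF-/-PAXX-/- (exact permutation test, p = 0.0238 each, not adjusted) and -73.7 bp for Ligase4-/- (exact permutation test, p = 0.167).

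Reads from members also showed that the Sμ region of these cells is not the mm9 sequence throughout, and that it differs between clones. In WT, the prey alignments of 178 members (52 to 71 per library) all stopped at 1198 bp from the bait, with at least 40 more bases on the read, while 110 members aligned across that point by over 20 bp. The bases after the stop matched the Sα region at chr12:114500088 on the minus strand, with 1 mismatch in 40. PAXX-/- clone 1, both XLF-/- clones and XLF-/-PAXX-/- clone 2 stopped at the same base, in 507, 261, 216 and 345 members, with the same match to Sα. In PAXX-/- clone 1 the match had 2 mismatches and in the other 3 clones 1. PAXX-/- clone 2 stopped instead at 1163 bp (221 members, 52 crossing), before an exact match to Sα at chr12:114500008. XLF-/-PAXX-/- clone 1 stopped at 1073 bp (183 members, 105 crossing), before an exact match at chr12:114500020. All these stops occurred in each of the 3 libraries of the clone.

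The Ligase4-/- clones had stops within Sμ itself. In clone 2, 177 members stopped at 964 bp and 60 crossed, and the reads resumed at 1168 bp on the same strand. That continuation matched mm9 with 4 mismatches in 40, and its end reads like the WT sequence across 1198 bp. In 40 further members of this clone alignments stopped at 1198 bp before the same Sα sequence as in WT, and 72 crossed. In clone 1, 71 members stopped at 872 bp and resumed on the opposite strand at 1286 bp. Another 52 members of clone 1 stopped at 1285 bp and resumed on the opposite strand at 873 bp, which reads as both ends of an inverted segment. The crossing reads numbered 370 and 307. Each line shows the last 20 aligned mm9 bases in lower case and the next 40 bases of the reads in capitals, and on average at least 91.8% of reads had the base shown.
WT at 1198 bp: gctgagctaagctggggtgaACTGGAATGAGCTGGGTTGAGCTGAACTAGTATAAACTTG
PAXX-/- clone 2 at 1163 bp: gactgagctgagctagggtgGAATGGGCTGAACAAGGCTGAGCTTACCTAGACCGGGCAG
XLF-/-PAXX-/- clone 1 at 1073 bp: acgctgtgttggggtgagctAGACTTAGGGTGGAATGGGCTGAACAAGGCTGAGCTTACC
Ligase4-/- clone 2 at 964 bp: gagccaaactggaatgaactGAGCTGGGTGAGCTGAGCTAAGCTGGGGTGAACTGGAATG
Ligase4-/- clone 1 at 872 bp: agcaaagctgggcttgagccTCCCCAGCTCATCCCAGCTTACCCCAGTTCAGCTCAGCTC
Ligase4-/- clone 1 at 1285 bp: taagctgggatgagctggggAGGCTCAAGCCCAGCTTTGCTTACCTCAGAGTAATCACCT

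Past these points, distance in mm9 is not distance along the reads that stop there. The share of joins in this stretch differed between clones of 1 genotype. Joins at 1000 to 1200 bp made up 19.7% ± 0.277 of members in WT and 18.2% ± 0.708 for PAXX-/- clone 1, but 11.9% ± 0.926 for PAXX-/- clone 2. They made up 17.8% ± 2.08 for XLF-/-PAXX-/- clone 2 but 6.44% ± 0.432 in clone 1, and 13.3% ± 0.294 for Ligase4-/- clone 1 but 6.71% ± 0.744 in clone 2. The clones with few joins there are those whose alignments stopped below 1198 bp, with Ligase4-/- clone 1, where most reads crossed its stops, in between. The part of the stops in these values was not tested. Counting only joins within 850 bp, short of every stop, the genotype test gave 98.2% of the variation among clones for median distance (exact permutation test, p = 0.0127, not adjusted). Nor was their part in the class at 2000 to 3000 bp tested.

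**Figure D4:**
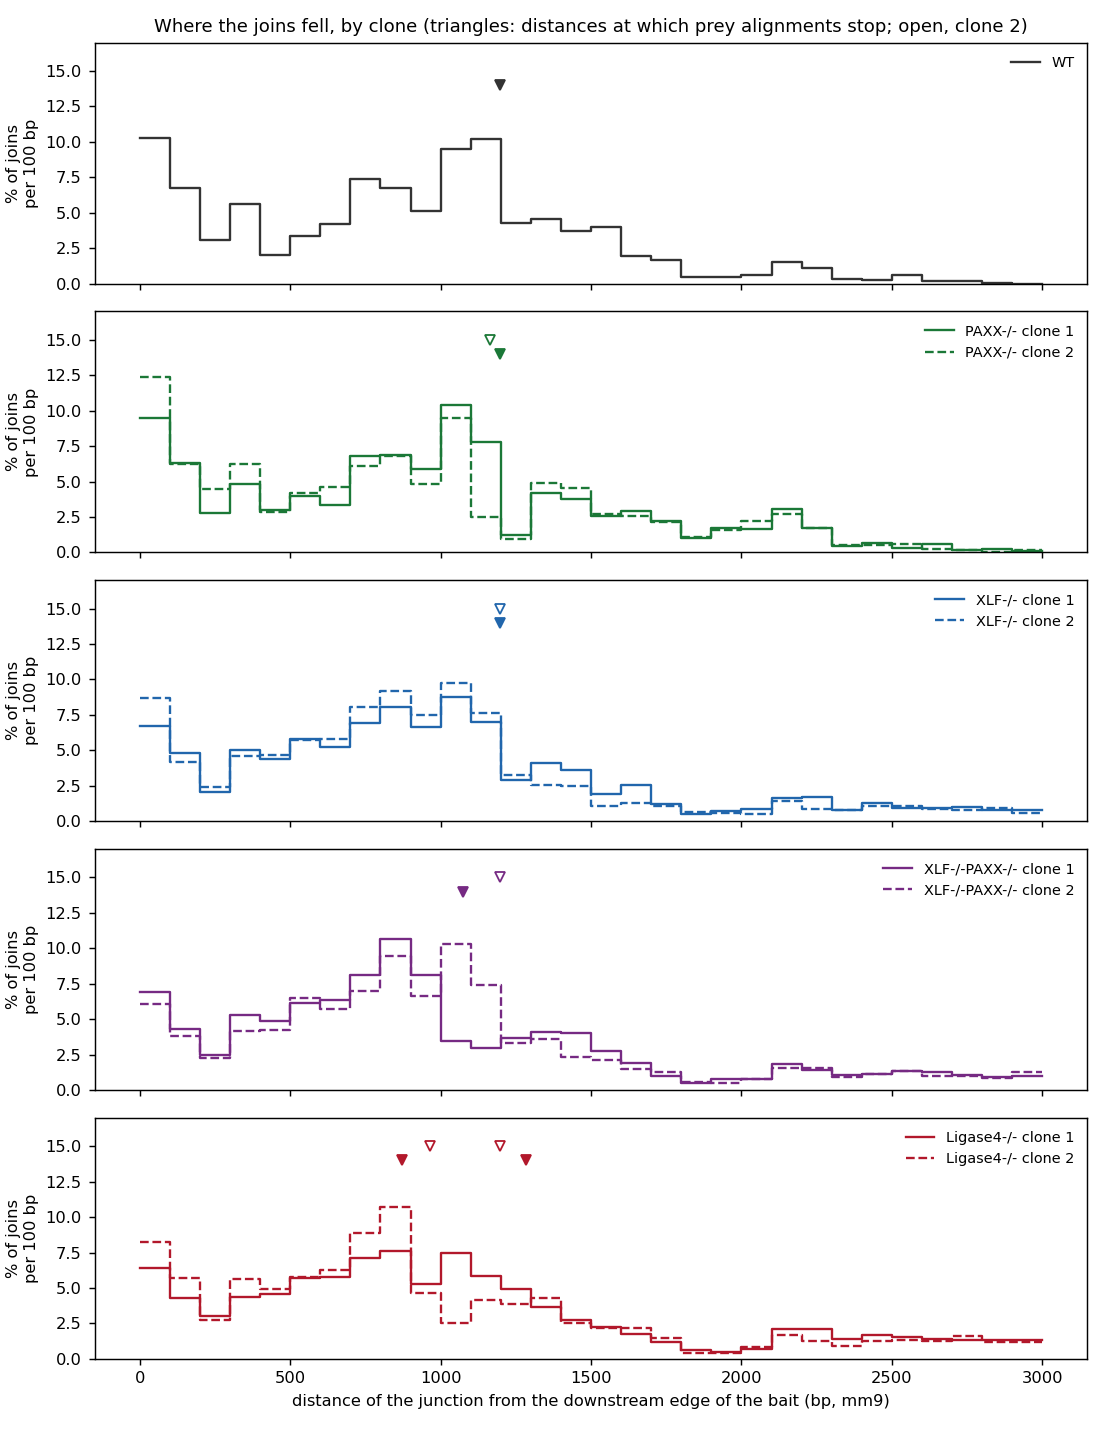
Percentage of a clone's joins in each 100 bp of distance from the bait (mean of 3 libraries), with solid lines for clone 1, dashed lines for clone 2 and triangles at the distances where prey alignments of that clone stopped. The profile falls at 1198 bp in WT, XLF-/-PAXX-/- clone 1 is low from 1000 to 1200 bp (3.47% and 2.97% per 100 bp), and Ligase4-/- clone 2 is low from 1000 to 1100 bp (2.55%).

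Single base differences from mm9 marked the clones as well. In prey alignments with up to 5% mismatches, 33 positions of the window had a changed base in at least 10% of 50 or more reads in some clone, and 30 of these were C-to-T or G-to-A changes, the kind that cytosine deamination gives on either strand. Some were shared by all clones, such as a C-to-T change at 607 bp in 56.7% to 78.7% of reads. Others belonged to 1 clone: a G-to-A change at 681 bp in 53.4% of 290 reads of XLF-/- clone 1, at 720 bp in 66.5% of 179 reads of PAXX-/- clone 2, and at 125 bp in 58.1% of 186 reads of XLF-/-PAXX-/- clone 2, each at most 1.43% in every other clone. A C-to-T change at 717 bp was read in 31.2% of 192 reads of PAXX-/- clone 2 and in 34.7% and 36.3% in the XLF-/-PAXX-/- clones, and in at most 2.55% elsewhere. The bait change C70T was carried by the same 3 clones.

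Joint class moved with these changes, as the deposited alignments place them. Of joins whose junction lay directly past one of the 33 positions (1328 joins), 63.1% were classed as insertions, against 26.3% of all others. In 722 of those 838 insertions the last inserted base was the changed base itself. By clone, joins directly past these positions were 2.48% (XLF-/-PAXX-/- clone 1) to 6.85% (WT) of members. Insertions made up 48.1% (Ligase4-/- clone 2) to 76.9% (PAXX-/- clone 2) of them. The 5 most used junction positions lay at 1201, 1053, 1131, 1056 and 1156 bp and took 2.11% of joins together, as a mean over clones, while 91.8% of positions were used at least once. Insertions made up 76.6%, 72.3% and 74.0% of joins at 1053, 1131 and 1156 bp, each directly past a changed position. They made up 93.5% at 1201 bp, where no change was called at the base directly before. Nearby, at 1199 bp, a G-to-A change was read in 83.6% of 61 WT reads and 91.7% of 228 Ligase4-/- clone 1 reads. The other clones had 3 to 12 reads there, too few for a call. The position at 1056 bp was used mainly by microhomology joins (84.1%). Without the joins directly past changed positions, insertions differed between PAXX-/- and WT by 7.86 points (exact permutation test, p = 0.0119) and between XLF-/- and WT by -4.36 points, which was no longer called (exact permutation test, p = 0.0595).

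Which bases were shared was examined next. The most frequent microhomologies of 2 or more bases were GC with 5.62% of microhomology joins, AG with 5.13%, TG with 4.58% and AGC with 3.62% (means over clones). Among 1336 joins with exactly 5 shared bases, 622 shared AGCTG (46.6%), and 99.4% of these lay in the repeats. AGCTG made up 2.94% ± 0.960 of microhomology joins in WT, 2.07% ± 0.598 for PAXX-/- clone 1 and 3.02% to 4.36% in the clones lacking XLF or DNA ligase 4. In PAXX-/- clone 2 it made up 0.312% ± 0.201. The bait holds the matching AGCTG where its alignment ends at bait position 72, an end used by 0.416% of joins in PAXX-/- clone 2 and 3.03% to 7.33% in the other clones. That clone carried G69A in 50.9% and C70T in 40.02% of reads over this motif. The difference of 2.55 points between XLF-/- and PAXX-/- in the AGCTG share (exact permutation test, p = 0.00476, adjusted p = 0.0251) includes this clone.

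Joint structure also changed along the window. In WT, direct joins made up 30.4% ± 4.58 of joins at 1 to 500 bp, 21.8% ± 3.03 at 500 to 1000 bp, 15.1% ± 4.27 at 1000 to 2000 bp and 16.8% ± 6.37 at 2000 to 3000 bp. In the PAXX-/- clones they went from 25.6% ± 3.80 and 22.6% ± 1.28 in the nearest class to 14.3% ± 1.48 and 12.9% ± 1.37 at 1000 to 2000 bp, and stood at 13.98% ± 3.18 and 15.8% ± 6.81 in the farthest class. In XLF-/- they stood at 10.9% ± 0.600 and 9.03% ± 3.55 in the nearest class and at 6.58% ± 1.82 and 8.07% ± 1.92 at 1000 to 2000 bp, with 8.83% ± 2.42 and 3.58% ± 4.69 in the farthest class. In the XLF-/-PAXX-/- clones the nearest class held 9.05% ± 1.03 and 9.25% ± 2.17. They held 4.94% ± 1.45 and 5.96% ± 0.678 at 1000 to 2000 bp and 5.95% ± 2.11 and 7.52% ± 4.11 in the farthest class. The Ligase4-/- clones held 7.97% ± 1.10 and 6.63% ± 1.42, then 7.54% ± 0.724 and 5.57% ± 2.21, then 5.10% ± 1.33 and 5.23% ± 3.47. The farthest class did not continue the fall in WT, PAXX-/- clone 2, XLF-/- clone 1 or the XLF-/-PAXX-/- clones. Mean microhomology length was 1.83 ± 0.0373 bases at 1 to 500 bp in WT and 2.49 to 2.59 bases by clone without XLF or DNA ligase 4. At 1000 to 2000 bp it was 2.50 ± 0.111 in WT and 2.87 to 3.12 in those clones. The nearest class holds no repeat bases, and overlaps there were shorter in every clone than at 1000 to 2000 bp. Microhomology joins still took a larger share in the nearest class than at 1000 to 2000 bp. This share was 54.6% and then 45.3% in WT, and 54.4% and 37.3% for PAXX-/-. It was 73.5% and 62.3% for XLF-/-, 67.6% and 56.7% for XLF-/-PAXX-/-, and 71.8% and 54.1% for Ligase4-/-. At 2000 to 3000 bp it was 48.3%, 45.2%, 76.0%, 73.8% and 72.2% in that order. Insertions, the remainder, were thus more frequent at 1000 to 2000 bp than in the nearest class. These classes were described and not tested.

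The same libraries held 74883 deletional joins in the Sα window (chr12:114489501-114509500), the acceptor of the switch to IgA, which serve as a comparison with the same bait. The Sα bases read past the stops at 1198, 1163 and 1073 bp (chr12:114500088, 114500008 and 114500020) lie inside this window. On DNA where Sμ runs into Sα in this way, Sα joins cannot be told apart from short-range joins. Their part in the comparison was not tested. Over the 9 clones, joins near the bait had 1.09 points more direct joins (11% against 9.95%, exact sign-flip permutation test, p = 0.00781, adjusted p = 0.0230), a microhomology difference of -4.95 points and an insertion difference of 3.86 points (each with an exact sign-flip permutation p of 0.00391, adjusted p = 0.0230). Mean microhomology length differed by 0.0141 bases (exact sign-flip permutation test, p = 0.551). The length difference was called in opposite directions in other sets of joins, at 0.0756 bases without the nearest 200 bp (exact permutation test, p = 0.0156), -0.0680 within 1 kb (p = 0.0352), -0.111 within 850 bp (p = 0.0117) and -0.0784 with bait ends before position 69 (p = 0.00391), none of them adjusted. The microhomology and insertion shares depended on the window as well: within 1 kb of the bait the microhomology difference was -0.342 points (exact permutation test, p = 0.566) and the insertion difference was -2.34 points (exact permutation test, p = 0.160). Within 850 bp the insertion difference was -3.13 points (exact permutation test, p = 0.00781).

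The difference in microhomology length between the sites itself varied with genotype. Near the bait minus Sα, it was -0.0244 ± 0.0859 bases in WT and -0.0985 ± 0.0310 and -0.0893 ± 0.103 for PAXX-/-. It was 0.0444 ± 0.0572 and 0.0475 ± 0.0528 for XLF-/-, 0.0425 ± 0.0675 and 0.108 ± 0.00695 for XLF-/-PAXX-/-, and 0.0601 ± 0.0317 and 0.0367 ± 0.0400 for Ligase4-/-. Of its variation among clones 93.8% lay between genotypes (exact permutation test, p = 0.0169, adjusted p = 0.0316). It was not called within 1 kb (79.7%, exact permutation test, p = 0.125), nor among joins whose bait ended before position 69 (38.9%, exact permutation test, p = 0.669), nor without XLF-/-PAXX-/- clone 1 library 1 (87.1%, exact permutation test, p = 0.0720). The direct share's difference between the sites was not called across genotypes after adjustment (80.5%, exact permutation test, p = 0.0455, adjusted p = 0.0772).

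**Figure D5:**
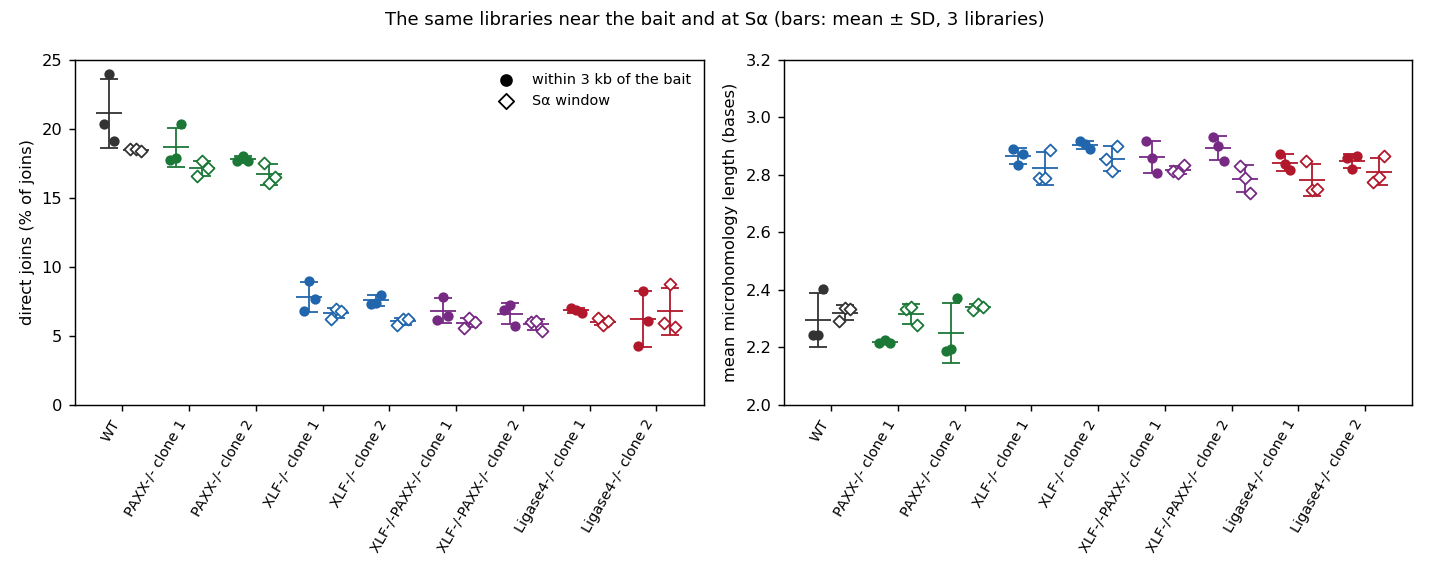
Direct joins as a percentage of joins (left) and mean microhomology length in bases (right) for each library near the bait (filled circles) and in the Sα window (open diamonds), with the mean and SD of the 3 libraries of a clone. At both sites WT and PAXX-/- clones hold more direct joins and shorter microhomology than the 6 clones lacking XLF or DNA ligase 4, and the length axis starts at 2 bases.

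Orientation changed together with structure. Junctions at the same 1 to 3000 bp in the opposite orientation, which would invert and not delete the segment, numbered 341 in WT and 897 for PAXX-/- but 2147 for XLF-/-, 3055 for XLF-/-PAXX-/- and 3392 for Ligase4-/-. Deletional joins were thus 86.9% ± 0.919 of junctions in the window in WT and 89.0% ± 1.05 and 89.7% ± 0.690 for PAXX-/-. They were 73.2% ± 0.350 and 73.3% ± 1.71 for XLF-/-, 71.3% ± 1.83 and 72.7% ± 1.47 for XLF-/-PAXX-/-, and 65.9% ± 2.12 and 75.6% ± 2.48 for Ligase4-/-. This share was described and not tested. Of the Ligase4-/- junctions in the opposite orientation, 2411 came from clone 1 and 981 from clone 2. On DNA of clone 1 with the segment read as inverted between 872 and 1285 bp, mm9 gives joins into it the opposite orientation. The part of this segment in the counts and shares was not tested.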

How the data were processed

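The authors deposited 1 junction table for each clone, pooling its 3 libraries, with 1 line per junction, which places bait and prey both within the read and in mm9. Bowtie2 and mm9 are named in the submitters' processing notes, with no version or filter stated in the sources used here. Libraries were told apart by the tables' library column and runs (8 in all) by the read names. No value column was left unused (0). The members, measures and lists were chosen with earlier results of these data known. Genes of the window are not given, since mm9 gene positions were not used here.

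Overlap was the bait alignment's last read base minus the prey alignment's first, plus 1. Genotypes were compared over the 9 clones, each the mean of its libraries, by the sum of squares between them over all 945 assignments. This treats the 9 clones as independent, although both XLF-/-PAXX-/- clones were made from 1 PAXX-/- clone. Pairs of genotypes were compared over libraries by a two-sided exact permutation test on the difference of means, with 95% intervals from inverting the test. Near-bait and Sα values were compared by exact sign flips over clones. A call is an adjusted p (Benjamini-Hochberg over 56 tests) under 0.05, and 22 tests added later were adjusted over all 78. The Sα window was 20 kb around the densest 1 kb at least 50 kb from the bait. Named positions were the 5 with the highest mean share over clones, and named microhomologies the 4 most frequent of 2 or more bases. AGCTG and other positions were chosen after their values were seen. Stops of alignments were listed where 40 or more members of a clone ended at 1 base with 40 or more bases left. Shares carry no counting interval, and the spread between libraries is given in its place. The tests were tried on simulated data. Python 3.11.15, numpy 2.4.6, pandas 2.3.3, scipy 1.17.1 and matplotlib 3.10.9 were used.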

Additional observations from a re-analysis of the deposited data

Results flagged for a closer look

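The difference in mean microhomology length between joins near the bait and deletional Sα joins varied between genotypes, by a test of that difference itself. Genotype accounted for 93.8% of its sum of squares over the 9 clones (exact permutation p = 0.0169, adjusted p = 0.0316). Both PAXX-/- clones and WT had a shorter mean near the bait and the 6 clones lacking XLF or DNA ligase 4 a longer one, with differences of at most 0.108 bases. Bait changes G69A and C70T, which lie in the bait AGCTG, were read in PAXX-/- clone 2 and C70T also in both XLF-/-PAXX-/- clones. Their part in this difference was not tested beyond the 38.9% obtained among joins whose bait ended before position 69.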

How the results depend on the processing

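No paired analysis was possible because the tables carry no replicate numbers. Of 32 called results, 21 kept direction and side of the threshold (unadjusted p of 0.05) in every alternative run and 11 did not; over all 56 results, 384 of 456 alternatives changed neither. The alternatives with a window of 850 bp and without joins beside changed prey positions were chosen after seeing the data. The cause of a change was not tested. Each value below is a difference in points, bp or bases, or the percentage of variation between genotypes. With identical junctions counted once, the genotype test of the near-bait minus Sα direct share gave 79.2. Without gaps over 20 bases, XLF-/-PAXX-/- minus Ligase4-/- was 2.14 for share of junctions (no longer called) and 2.14 for insertions (now called). Within 1 kb, genotype tests gave 88.8 for median distance and 91.8 for insertions. There PAXX-/- minus WT was -1.43 for microhomology, XLF-/- minus WT 117 for distance and -0.898 for insertions, XLF-/-PAXX-/- minus WT 144 for distance and 6.12 for insertions, Ligase4-/- minus WT 101 for distance, XLF-/- minus PAXX-/- 141 for distance and XLF-/-PAXX-/- minus XLF-/- -0.854 for direct joins. XLF-/-PAXX-/- minus Ligase4-/- was 1.56 for share, 43.6 for distance, -3.43 for microhomology and 2.91 for insertions. Near bait minus Sα was -0.342 for microhomology, -2.34 for insertions and -0.0680 for length, with genotype tests of 96.4 for insertions and 79.7 for length. Within 850 bp, the same order of results gave 98.2 for distance; -2.02 for microhomology; 141 and -0.270, 168 and 6.50; 134 for distance and 3.70 for insertions in Ligase4-/- minus WT; 139.6 for XLF-/- minus PAXX-/-; -0.501 for direct joins; 0.891, 33.8, -3.52 and 2.80 for XLF-/-PAXX-/- minus Ligase4-/-; and 0.111, -3.13, -0.111, 98.5 and 80.1 for the site comparisons. Without the nearest 200 bp, PAXX-/- minus WT was -2.32 for direct joins, XLF-/- minus WT -2.46 for share and -74.8 for distance, XLF-/-PAXX-/- minus WT -94.4 and XLF-/- minus PAXX-/- -53.5 for distance, XLF-/-PAXX-/- minus XLF-/- -0.949 for direct joins, near bait minus Sα 0.0756 for length, and its genotype tests 69.5 for direct joins and 92.5 for length. With bait ends before position 69, PAXX-/- minus WT was -1.95 for direct joins, XLF-/- minus WT -5.75 for insertions, XLF-/-PAXX-/- minus XLF-/- -1.41 for microhomology and 2.76 for insertions, near bait minus Sα -0.0784 for length, and its genotype tests 47.8 for direct joins and 38.9 for length. Over junctions of chromosome 12, shares gave 94.1 between genotypes, 2.27 for PAXX-/- minus WT and 1.62 for XLF-/-PAXX-/- minus Ligase4-/-. Over deletional junctions within 10 kb, they gave 98.96, -1.12, 0.585 and, for XLF-/-PAXX-/- minus XLF-/-, -2.71. Without insertions in the denominator, PAXX-/- minus WT was -1.48 for direct joins and 1.48 for microhomology, XLF-/-PAXX-/- minus XLF-/- -0.515 and 0.515, and the site genotype test 75.7 for direct joins. Without joins beside changed prey positions, XLF-/- minus WT was -4.36 for insertions, XLF-/-PAXX-/- minus XLF-/- -0.770 for direct joins and near bait minus Sα 2.26 for insertions. Leaving out single libraries changed 30 of 810 values. PAXX-/- minus WT ranged from -3.94 to -1.52 for direct joins, -4.56 to -2.60 for microhomology and -0.0886 to -0.00736 for length (called without PAXX-/- clone 2 library 3). XLF-/- minus WT ranged from -4.19 to -3.41 for share, and genotype tests from 81.6 to 88.6 for share (called without PAXX-/- clone 2 library 1, XLF-/- clone 2 library 1 or Ligase4-/- clone 2 library 1). XLF-/-PAXX-/- minus XLF-/- ranged from -1.20 to -0.725 for direct joins. XLF-/-PAXX-/- minus Ligase4-/- ranged from -2.44 to -0.642 for microhomology and 0.914 to 1.90 for insertions (both called without Ligase4-/- clone 2 library 2) and 0.0210 to 0.0465 for length (called without XLF-/-PAXX-/- clone 1 library 3). Site genotype tests ranged from 64.2 to 88.3 for direct joins and 87.1 to 98.2 for length.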
